A study of Sus scrofa with 8 samples.

Results

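The mammalian circadian clock is a feedback loop of transcription factors that most cells of the body carry, fat cells included. Its activators, BMAL1 (encoded by ARNTL) and CLOCK, bind E-box sequences and switch on the PER and CRY genes, whose proteins return to the nucleus and shut the activators off. A second loop runs through the nuclear receptors NR1D1 and NR1D2, which repress ARNTL, and output factors such as DBP carry the rhythm to other genes. Because ARNTL and its targets peak at different times of day, the level of any of these genes in a single sample depends on when that sample was taken. The labels give no time of day.

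The list held 10 genes of this loop, taken as the probe sets whose platform annotation gives exactly 1 gene symbol, that symbol being in the list. Of the 10 genes, 5 were found, ARNTL, PER1, CRY2, BHLHE40 and DBP, on 7 of the 24123 probe sets of the array. CLOCK, PER2, CRY1, NR1D1 and NR1D2 had no such probe set and were not analysed here, so a partner of the activator, both nuclear receptors and a paralogue each of PER1 and CRY2 are missing from what follows. PER1 and BHLHE40 had 2 probe sets each. The one with the higher mean over all arrays stands for the gene and is called its main probe set.

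The samples were backfat, the subcutaneous fat of the back, from KNP and YS pigs grown under the same conditions, with 4 KNP samples at 7 months of age and 4 YS samples at 6 months, with 1 array of the Affymetrix porcine design per sample. Yorkshire is the breed name on one YS label, and the labels leave KNP as an abbreviation. No treatment or genetic change is stated for either breed, sex is not stated, and age cannot be told apart from breed. Nothing in the labels ties the samples to separate animals, so p-values cover the spread among these samples only, which may be technical.

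Signal is the deposited linear intensity of a probe set, and log2 values are log2(signal + 16). Fold values were taken from log2 values, so they are ratios of signal + 16. As a guide to background, the no-target level of an array is the 95th percentile of the 23 controls on it that match no pig transcript. It ran from 76.1 to 115 in KNP and from 40.6 to 161 in YS. Of 8 measured adipocyte markers, 7 lay above it on all 8 arrays, with a summed signal of 101073 to 174071 in KNP and 113512 to 145440 in YS. Several arrays stood apart from the rest. The summed signal of the 6 measured skeletal muscle markers was 48922 on KNP replicate 2, against 193 to 692.5 on the other KNP arrays and 179 to 560.3 on the YS arrays, with none of these markers at 0. The 3' excess of an array is how far, in log2, its actin, GAPDH and elongation factor controls were brighter at the 3' end of the transcript than at the 5' end, and it is larger where the labelled RNA was less complete. It was 5.69 and 5.23 on KNP replicates 1 and 2, 1.14 and 1.42 on KNP replicates 3 and 4, and 2.13 to 3.26 on the YS arrays, where YS replicate 4 was highest. The median signal was 224 on KNP replicate 1 and 263 on YS replicate 4, against 165 to 174 on the other KNP arrays and 158.2 to 166 on the other YS arrays. The summed signal of the 5 endothelial markers, all over the no-target level on every array, was 10686.5 on KNP replicate 1 and 15803 to 19879 on the other KNP arrays, against 13505 to 14929 in YS. Clock gene values without such arrays, or with the 3' excess as a covariate in the fit, stand beside the results they change.

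None of the 5 clock genes passed the test between breeds. In limma, with Benjamini-Hochberg adjustment over 17999 probe sets, 0 of the 5 genes had an adjusted p under 0.05, against 0% of all probe sets, and each of the 5 had an adjusted p of 0.9998. At an unadjusted p under 0.05 there was 1 of the 5, BHLHE40, against 2.84% of all probe sets. This count was 0 without KNP replicate 1, KNP replicate 2 or YS replicate 3, with quantile normalization, with the trended robust variance and without the 3 arrays of greatest 3' excess, and 2 without KNP replicate 4. Means were lower in KNP for 4 of the 5 genes, where 48.2% of the 6006 named genes were lower in KNP, and the median log2 difference of the 5 was -0.14, against 0.01 over all named genes. All values below are from this fit, and fewer cells of a type and less RNA per cell cannot be told apart in whole tissue.

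**Figure D1:**
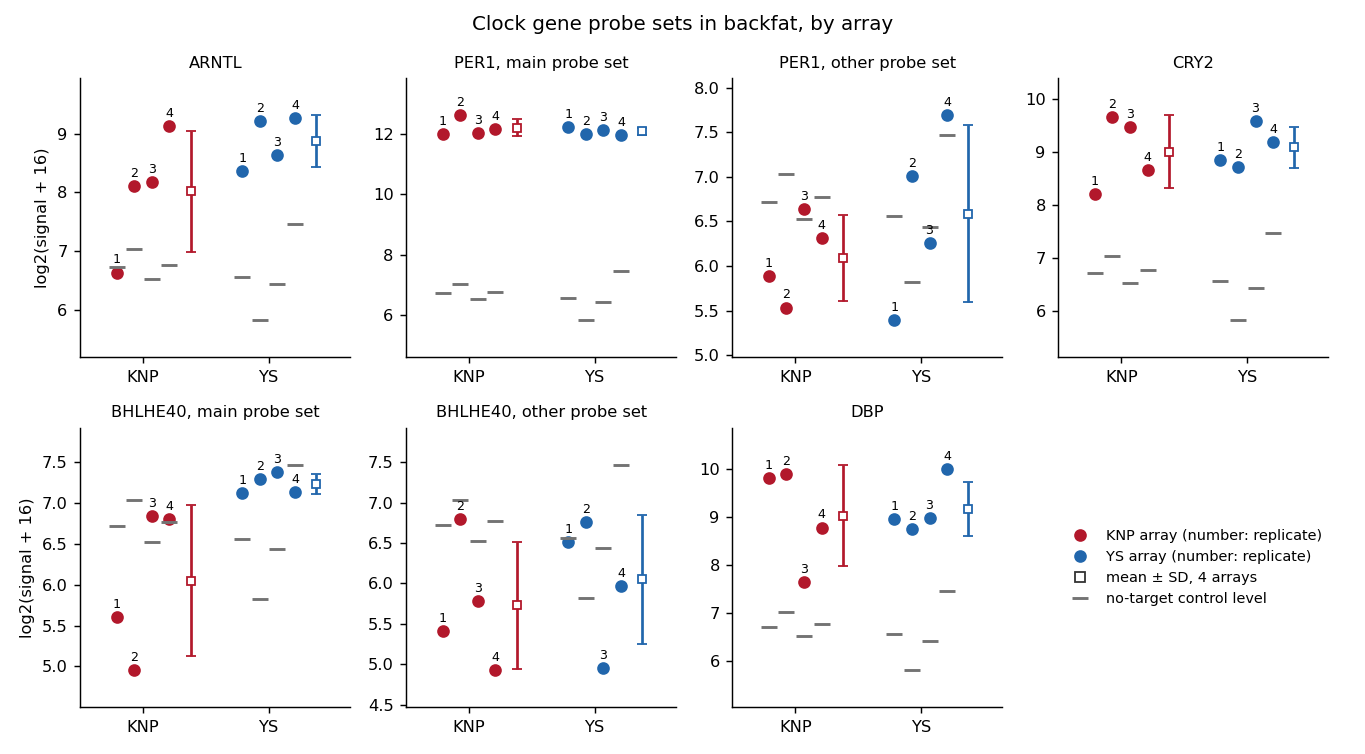
Log2(signal + 16) of the 7 clock gene probe sets on each of 4 KNP arrays (red, left) and 4 YS arrays (blue, right), with replicate numbers, the mean ± SD beside them and the no-target level of each array as a grey bar. The main BHLHE40 probe set is the one whose 4 KNP arrays all lie below the 4 YS arrays, and its 2 lowest arrays, KNP replicates 1 and 2, lie below the grey bars.

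The activator came first. ARNTL encodes BMAL1, the partner of CLOCK, and its loss in mice stops the rhythm. ARNTL signal was 83.4, 261, 274 and 546 on KNP replicates 1 to 4, against 314, 576, 381 and 602 on YS replicates 1 to 4. KNP replicate 1 was the lowest of the 8 arrays and lay under its own no-target level of 89.5, while KNP replicate 4 stood among the higher YS arrays, so the breeds overlapped. The means were 8.02 ± 1.03 in KNP and 8.87 ± 0.44 in YS (log2, SD, n = 4 each), a difference of -0.85 ± 0.50 (SE) with a 95% interval from -1.98 to 0.27. The YS mean was 1.81-fold the KNP mean, and in fold terms the interval for KNP over YS ran from 0.254 to 1.21. With the 3' excess as a covariate the ARNTL difference was -0.66 ± 0.45 (SE). Without KNP replicate 1 the difference was -0.39, and without the 3 arrays of greatest 3' excess it was -0.08, which leaves 2 KNP and 3 YS arrays.

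Of the repressors that act on BMAL1 and CLOCK, PER1 and CRY2 were measured. PER1 is both a clock gene and a gene that glucocorticoids and other acute signals induce. The main PER1 probe set had a signal of 4109, 6259.6, 4159 and 4521 on KNP replicates 1 to 4, against 4774, 4110.4, 4482 and 3972 on YS replicates 1 to 4. These arrays lay close together apart from KNP replicate 2, the array with high muscle markers. The means were 12.20 ± 0.28 in KNP and 12.08 ± 0.12 in YS (log2, SD, n = 4 each), a difference of 0.12 ± 0.24 (SE) with a 95% interval from 0.746-fold to 1.58-fold. Without KNP replicate 2 the difference was -0.02. PER1 had the narrowest interval of the 5 genes, so a change of more than 1.58-fold upward in KNP lay outside it.

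The other PER1 probe set lay near background and did not follow the main one. Its signal was 43.4, 30.3, 83.6 and 63.4 on KNP replicates 1 to 4, against 25.9, 113, 60.6 and 191 on YS replicates 1 to 4. It exceeded the no-target level of the array on 1 KNP and 2 YS arrays. Its fitted difference was -0.50 ± 0.49 (SE, log2), opposite in sign to that of the main probe set, and its adjusted p in limma was 0.9998.

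CRY2, a cryptochrome that binds PER proteins and blocks BMAL1 and CLOCK, had a signal of 279, 796, 696 and 386 on KNP replicates 1 to 4, against 447, 406, 745 and 566 on YS replicates 1 to 4. The highest and the lowest array were both KNP, and the YS arrays lay between them. The means were 9.0 ± 0.69 in KNP and 9.08 ± 0.38 in YS (log2, SD, n = 4 each), a difference of -0.09 ± 0.38 (SE) with a 95% interval from 0.521-fold to 1.70-fold. The sign turned when KNP replicate 1 (0.18), KNP replicate 4 (0.03) or YS replicate 3 (0.08) was left out.

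BHLHE40 encodes DEC1, a repressor that competes for the same E-boxes and is also induced by nutrients, hypoxia and growth factors. The signal of its main probe set was 32.7, 15.0, 98.7 and 95.7 on KNP replicates 1 to 4, against 124, 141, 151 and 124 on YS replicates 1 to 4. The KNP arrays all lay below the YS arrays, an arrangement found in this direction for 0.856% of the probe sets tested and for 1 of the 5 clock genes. The means were 6.05 ± 0.93 in KNP and 7.23 ± 0.13 in YS (log2, SD, n = 4 each), a difference of -1.18 ± 0.43 (SE). Its 95% interval, which is not adjusted for the number of probe sets, ran from -2.15 to -0.21, and the adjusted p in limma was 0.9998.

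The signal was near background and exceeded the no-target level of the array in 2 KNP and 3 YS samples. KNP replicates 1 and 2, the 2 arrays of greatest 3' excess, held the 2 lowest values, while KNP replicates 3 and 4, at 98.7 and 95.7, lay just under the lowest YS array. The difference was -0.82 without KNP replicate 2, -0.93 ± 0.27 (SE) with the 3' excess as a covariate and -0.44 without the 3 arrays of greatest 3' excess. It also followed the pseudocount, at -1.50 with 1 and -0.74 with 64 in place of 16.

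The other BHLHE40 probe set was left out of the test by the filter on low means. Its signal was 26.6, 94.8, 38.9 and 14.4 on KNP replicates 1 to 4, against 75.4, 92.0, 15.0 and 46.7 on YS replicates 1 to 4. The breeds overlapped there, and KNP replicate 2, the lowest array of the main probe set, was the highest of the 8 arrays. Its difference, not tested, had the same sign as that of the main probe set, at -0.32 (log2, KNP minus YS). It exceeded the no-target level in 0 KNP samples and 1 YS sample, so the BHLHE40 value in the test rested on a single dim probe set. As the mean of its probe sets the BHLHE40 difference was -0.75.

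DBP, the output arm, is a D-box activator whose gene is driven by E-boxes and has one of the largest daily swings in mouse tissues. DBP signal was 880.2, 932, 184 and 425 on KNP replicates 1 to 4, against 482, 416, 488 and 1014 on YS replicates 1 to 4. YS replicates 1 to 3 were alike, while the KNP arrays covered nearly the whole range, and every array lay above its no-target level. The means were 9.03 ± 1.05 in KNP and 9.18 ± 0.56 in YS (log2, SD, n = 4 each), a difference of -0.14 ± 0.52 (SE) with a 95% interval from 0.398-fold to 2.06-fold. Single arrays decided the sign, at 0.32 without KNP replicate 3 and 0.13 without YS replicate 4, against -0.43 without KNP replicate 2. With the 3' excess as a covariate the DBP difference was -0.44 ± 0.34 (SE).

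**Figure D2:**
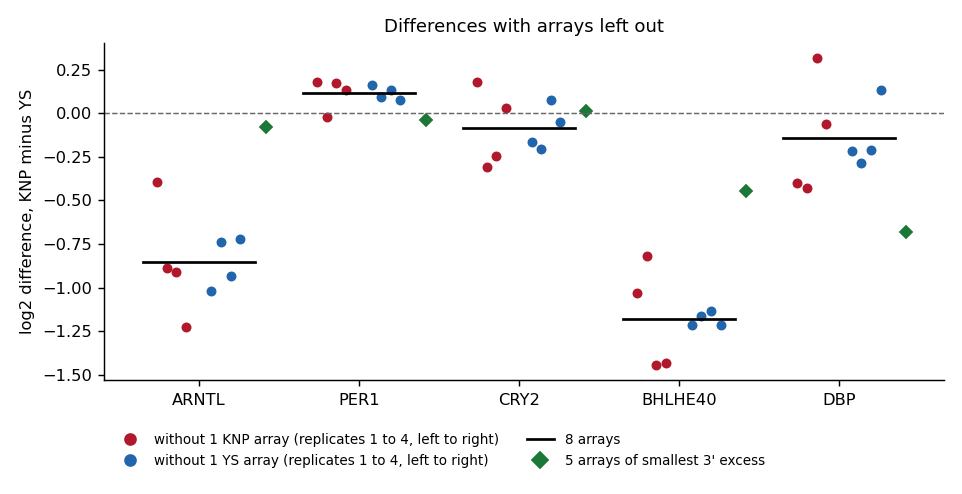
Log2 difference, KNP minus YS, of the 5 clock genes with all 8 arrays (black line), with 1 KNP array (red) or 1 YS array (blue) left out, and with the 5 arrays of smallest 3' excess (green diamond). ARNTL ran from -1.23 to -0.39 and BHLHE40 from -1.45 to -0.82 with 1 array left out, while DBP, CRY2 and PER1 lay on both sides of 0.

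Signals of the clock genes set beside the RNA measure of the arrays showed 2 arrangements. The 3 arrays of greatest 3' excess, KNP replicates 1 and 2 and YS replicate 4, held the 3 highest DBP signals, at 880.2 and 932 in KNP and 1014 in YS, against 184 to 488 on the other 5 arrays. The same arrangement was found for 7.26% of the 6006 named genes. KNP replicates 1 and 2 held the 2 lowest signals of both ARNTL and BHLHE40, as they did for 5.46% of the named genes. PER1 and CRY2 followed neither arrangement. The first takes 3 arrays and the second 2, and neither was planned or tested. No clock gene had its 3 lowest signals on the 3 arrays of greatest 3' excess. YS replicate 4, which is among them, held the highest ARNTL signal of all, 602. The 5 arrays of smallest 3' excess, 2 KNP and 3 YS, gave a DBP difference of -0.68 ± 0.38 (SE, log2), and DBP did not pass there either (adjusted p = 0.675 in limma).

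**Figure D3:**
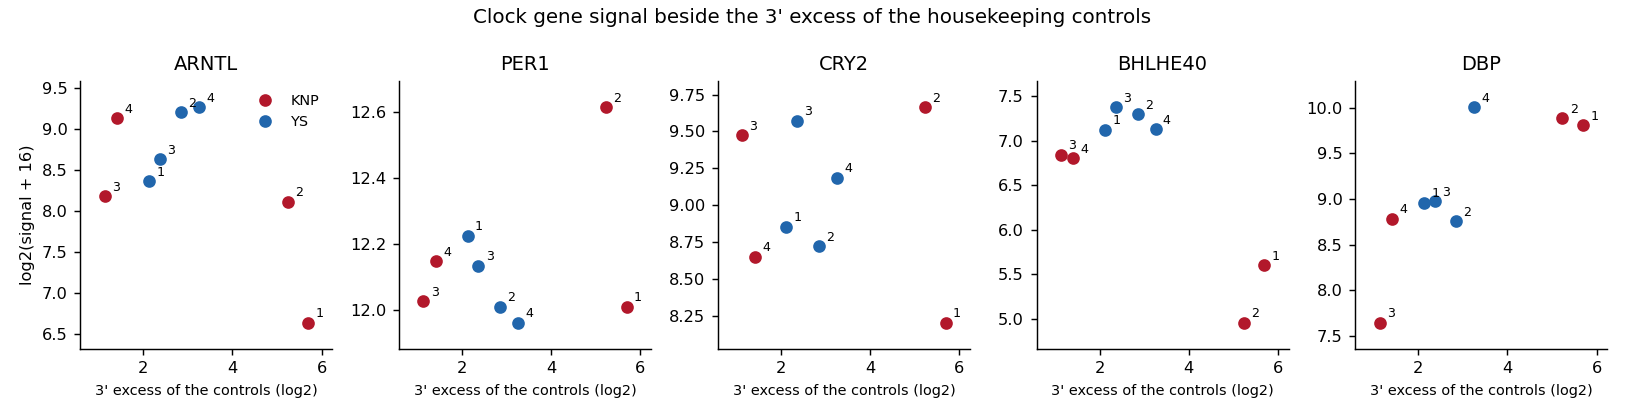
Log2(signal + 16) of the 5 clock genes (y axis) against the 3' excess of the housekeeping controls (log2, x axis), for KNP (red) and YS (blue) arrays with replicate numbers. DBP is highest on the 3 arrays furthest to the right, and ARNTL and BHLHE40 are lowest on KNP replicates 1 and 2, at 5.69 and 5.23 on the x axis.

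The KNP arrays were more spread out than the YS arrays for each of the 5 genes by its main probe set. The SD of log2 signal in KNP was 7.37 times that in YS for BHLHE40, 2.37 times for PER1, 2.33 times for ARNTL, 1.86 times for DBP and 1.82 times for CRY2. Over the 6006 named genes 56.5% had the larger SD in KNP, with a median ratio of 1.11. Between the lowest and the highest array signal + 16 differed 5.65-fold in KNP and 1.87-fold in YS for ARNTL. For DBP it differed 4.73-fold in KNP and 2.38-fold in YS. The count of 5 became 4 without KNP replicate 2 (53.0% of all named genes) and with median centring (45.3%), when PER1 changed side. It became 3 without the 3 arrays of greatest 3' excess (46.5%), when PER1 and BHLHE40 did. It stayed at 5 while the share of all named genes moved to 45.04% without KNP replicate 1 and 73.7% without YS replicate 4. This pattern was noticed after the values were seen, and was not tested. The other PER1 and BHLHE40 probe sets, both near background, had SD ratios of 0.487 and 0.988. The main BHLHE40 probe set was near background too, with KNP replicates 1 and 2 under their no-target levels. ARNTL lay under that level on KNP replicate 1.

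Since the hour of sampling is unknown, the genes were also compared with each other within arrays. In a running clock E-box targets such as DBP and PER1 rise and fall out of step with ARNTL. Over the 8 arrays Pearson's r with ARNTL was -0.19 for DBP (exact permutation p = 0.647; Spearman's rho -0.05, exact permutation p = 0.935) and -0.11 for PER1 (p = 0.744 by exact permutation; rho -0.33, p = 0.428). It was 0.29 for CRY2 (exact permutation p = 0.506; rho -0.07, p = 0.882) and 0.66 for BHLHE40 (exact permutation p = 0.0784; rho 0.69, p = 0.0694). None of these 4 correlations passed after Benjamini-Hochberg adjustment, with an adjusted exact permutation p of 0.313 for r and 0.278 for rho for BHLHE40. All tests were two-sided, and 4 arrays per breed were too few for a value within a breed.

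The arrays farthest from the ARNTL median were KNP replicate 1 and YS replicate 4. Without them, over 6 arrays, r with ARNTL was -0.76 for CRY2, -0.53 for PER1, -0.07 for DBP and 0.53 for BHLHE40, so the value for CRY2 turned round. It rested on KNP replicate 1, without which alone r for CRY2 was -0.64, while it was 0.27 without YS replicate 4 alone. With breed means subtracted, r for BHLHE40 was 0.47. Of the other named genes 13.0% had an r with ARNTL at least as far from 0 as that of BHLHE40, and 55.2% as far as that of CRY2.

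**Figure D4:**
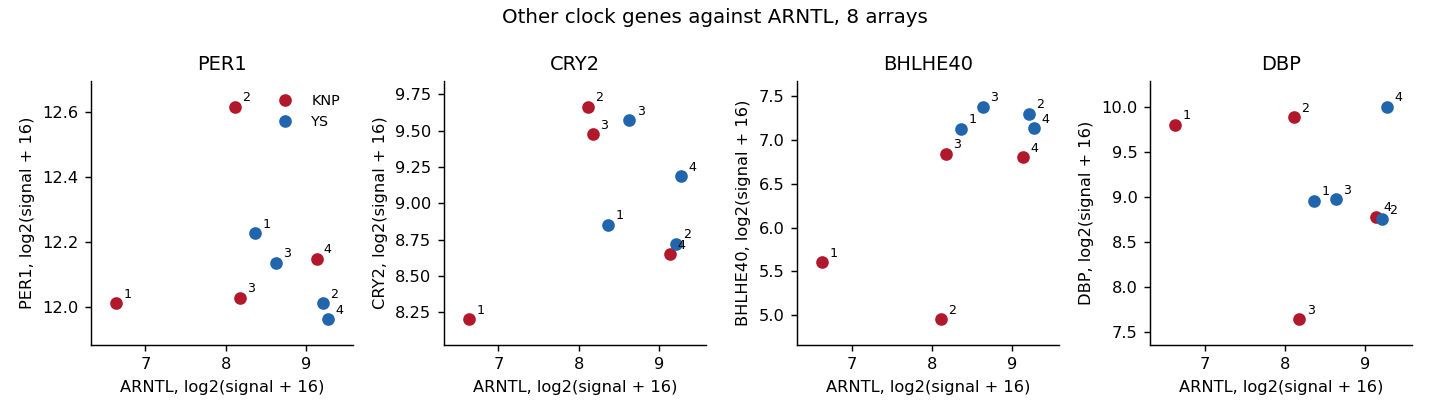
Log2(signal + 16) of PER1, CRY2, BHLHE40 and DBP (y axes) against that of ARNTL (x axis) on 4 KNP (red) and 4 YS (blue) arrays with replicate numbers. KNP replicate 1 lies apart at the low end of ARNTL in each panel, and BHLHE40 is lowest on KNP replicates 1 and 2.

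Genes whose pattern over the 8 arrays was most like that of ARNTL were named by the highest and the lowest r among 6001 other named genes, of which 14 had an r of at least 0.9 and 19 of at most -0.9. The highest was 0.98, for MAP3K3, a kinase upstream of MAP kinase pathways. It was at 8.64 ± 0.81 in KNP and 9.38 ± 0.21 in YS (log2, SD, n = 4 each). SELENOP, the plasma selenium carrier, had an r of 0.94, TRMT10C, a subunit of mitochondrial RNase P, 0.94, MYLIP, a ubiquitin ligase for the LDL receptor, 0.93, and SPARCL1, a matricellular protein, 0.93. The lowest were -0.97 for ERCC8, a factor of transcription-coupled repair, -0.97 for the magnesium transporter SLC41A1, -0.95 for the cytosolic chaperone HSP90AA1, -0.95 for RPL26L1 and -0.94 for the splicing factor AAR2. KNP replicate 1 carried part of these values: without it r was 0.94 for MAP3K3 and 0.71 for SPARCL1, and -0.89 for ERCC8 and -0.80 for AAR2. TRMT10C exceeded the no-target level on 6 of the 8 arrays. MAP3K3, SPARCL1, SLC41A1, HSP90AA1 and AAR2 had further probe sets, and r was taken only from the one of highest mean. These r values are descriptions over arrays that differed in median signal and in 3' excess, and none of the 10 genes passed the test between breeds.

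Beyond the 5 members, a list of 53 gene symbols of regulators, cofactors and outputs of the clock was followed. NOCT and RACK1 were each listed under an older symbol as well. On the array 27 of them had a probe set with 1 symbol, and 23 passed the filter on low means. None of the 23 passed in limma after adjustment, against 0% of all probe sets, and 1 had an unadjusted p under 0.05, against 2.84% of all probe sets. Means were lower in KNP for 15 and higher for 8, with differences from -0.73 to 0.46 and a median of -0.08 (log2), against 0.01 over all named genes.

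By role, the nuclear receptor RORA, which activates ARNTL, and NFIL3, which represses at the D-boxes that DBP activates, both had lower means in KNP without passing the test. RORA was at 7.02 ± 0.25 in KNP and 7.15 ± 0.30 in YS, and NFIL3 at 10.27 ± 0.71 in KNP and 10.42 ± 0.12 in YS (log2, SD, n = 4 each). These 2 genes were named for their roles, outside the naming rule. Of 5 kinases that phosphorylate clock proteins or signal to them, 4 had higher means in KNP, with a median difference of 0.19. Other probe sets of these genes had the opposite sign: -0.27 for CSNK1D, -0.17 and -0.35 for CSNK1A1, and -0.45 for PRKCA. The PRKCA probe set was left out of the test by the filter on low means. Those of the same sign were at 0.14 for CSNK1D and 0.33 for PRKAA1, the latter also left out by the filter. Means were lower in KNP for all 4 ubiquitin ligase and co-repressor parts (median -0.09) and for all 3 cell cycle and metabolic outputs (-0.28). Other HDAC3 probe sets were at 0.07 and -0.09, and other NCOR1 probe sets at -0.20 and -0.48. Both genes grouped as glucocorticoid-induced, FKBP5 and TSC22D3, were lower in KNP (-0.31). PER1 and KLF9, which glucocorticoids also induce, were outside that group, at 0.12 and -0.73. Means were lower for 2 of 3 Krüppel-like factors (-0.39) and for 1 of 4 RNA-binding, chaperone and scaffold genes (0.09). None of these genes passed, 48.2% of all named genes had the lower mean in KNP, and the grouping by role was made after the values were seen.

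The related gene with the smallest p was KLF9, a Krüppel-like factor that glucocorticoids induce. KLF9 signal was 3548, 4109.8, 2722 and 4779 on KNP replicates 1 to 4, against 6545, 6266, 6084 and 5721 on YS replicates 1 to 4. All KNP arrays lay below all YS arrays, as for 0.856% of the probe sets tested and for 1 of the 23 related genes. The KLF9 difference was -0.73 ± 0.25 (SE, log2), with an adjusted p of 0.9998 in limma. A second KLF9 probe set was at 6.27 ± 1.82 in KNP and 6.21 ± 0.72 in YS (log2, SD, n = 4 each), with no such separation of means. These means lay near background, as the no-target level of the arrays ran from 5.82 to 7.47 (log2). Next came the catalytic AMP-activated kinase subunit PRKAA1, which marks cryptochromes for degradation in mouse cells, at 7.77 ± 0.39 in KNP and 7.35 ± 0.16 in YS. HSP90AA1 was at 14.55 ± 0.56 in KNP and 14.09 ± 0.31 in YS, and 1 of its 4 other probe sets had the opposite sign. KLF10, a clock-driven factor in mouse liver with roles in glucose metabolism, was at 10.85 ± 0.40 in KNP and 11.24 ± 0.42 in YS. None of these 4 genes passed the test.

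**Figure D5:**
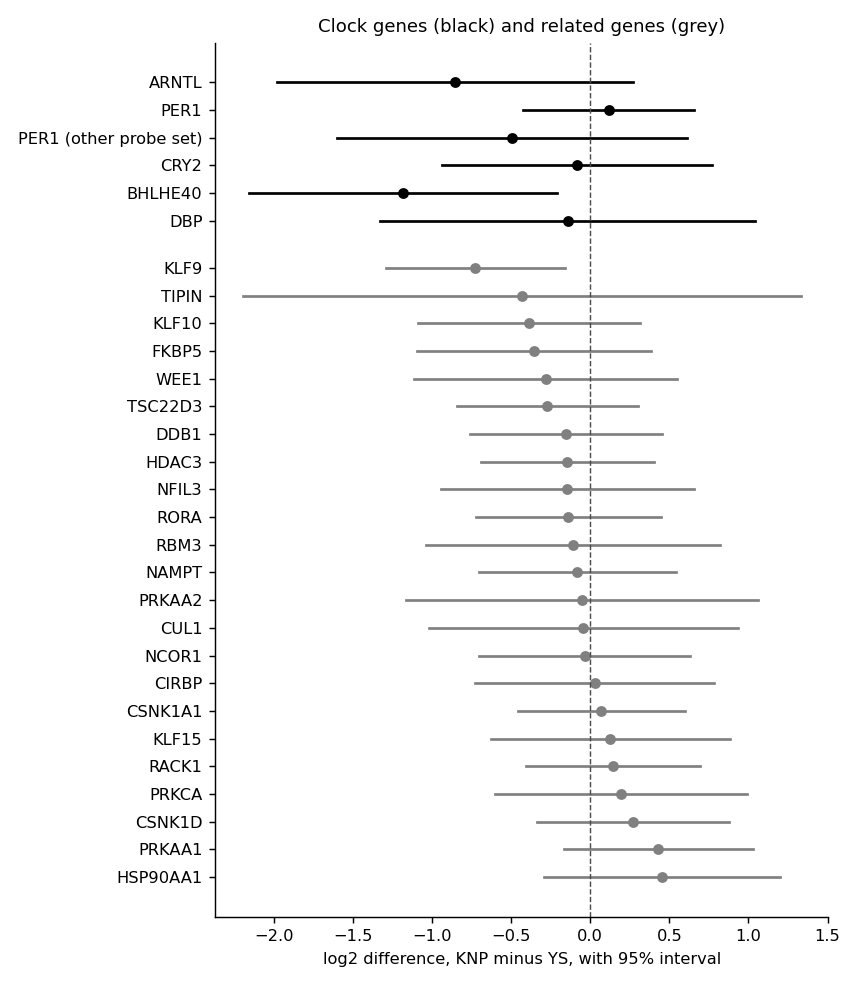
Log2 difference, KNP minus YS, with its 95% interval from limma, not adjusted for the number of probe sets, for the 6 clock gene probe sets tested (black) and the 23 related genes (grey). All intervals but those of BHLHE40 and KLF9 include 0, and neither of these passed after adjustment.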

How the data were processed

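Total RNA of backfat was labelled with biotin and hybridised to a 1-colour array, per the labels. The authors deposited 1 linear intensity per probe set and array, scaled so that the mean trimmed by 2% at each end is 500 on each array. The values themselves show this scaling. How probes were summarised is not stated in the labels. Precision is limited by the 4 arrays of each breed. Gene names came from the platform annotation, which can be old (10099 probe sets with 1 symbol, 198 with several).

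From these intensities log2(signal + 16) was computed, 124 control probe sets and the 25% of the others with the lowest mean were left out, and 17999 probe sets were fitted with limma 3.58.1 in R 4.3.3 (KNP minus YS, no covariate, Benjamini-Hochberg, two-sided, threshold 0.05). The fit was tested on simulated data. Correlations used exact permutation. Named were all members, the 4 related genes of smallest p, and the 5 genes of highest and of lowest r with ARNTL. The members and lists were chosen with earlier results of these data known. Array pairs correlated at 0.798 to 0.929, so none was a copy of another.

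Settings tried besides the main one were array weights, a trended robust variance (statmod 1.5.0), pseudocounts of 1 and 64, median centring, quantile normalization, a 50% filter or none, the replicate number as a block, the 3' excess of the array as a covariate, averaging the probe sets of a gene, a looser threshold of 0.10, and leaving out each array. Leaving out the 3 arrays of greatest 3' excess, the count of SDs and the arrangements by 3' excess were added after seeing the data.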

Additional observations from a re-analysis of the deposited data

Results flagged for a closer look

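Of 30 groups of 4 arrays examined for a sample far from the rest, 1 held such a sample, where chance gives about 1 in 20 groups. The median of the skeletal muscle markers on KNP replicate 2 was 6.24 above the gene means (log2), against -1.73 to -0.79 on the other KNP arrays. No clock gene probe set held an array this far from its group. KNP replicate 2 had the highest signal of the main PER1 probe set, of CRY2 and of the other BHLHE40 probe set among the 8 arrays, and the lowest of the main BHLHE40 probe set. Without it the log2 difference was -0.02 for PER1, -0.31 for CRY2 and -0.82 for BHLHE40.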

How the results depend on the processing

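The count of clock genes past an adjusted p of 0.05 was 0 in all 21 alternatives, that of all probe sets in all 20, and that of correlations with ARNTL in all 15. The differences of ARNTL and BHLHE40 kept their sign in all 19 alternatives in which each was fitted, and BHLHE40 was not fitted with a filter of 50%. Without the 3 arrays of greatest 3' excess the sign turned for PER1 (-0.036), its other probe set (0.25) and CRY2 (0.013), and the count of 5 genes with the larger SD in KNP became 3. With 1 array left out that count ran from 4 to 5, and the differences ran from -0.022 to 0.18 for PER1, -0.31 to 0.18 for CRY2 and -0.43 to 0.32 for DBP. CRY2 was at 0.042 with array weights, and PER1 at -0.19 as the mean of its probe sets. The r of PER1 with ARNTL was 0.056 with breed means subtracted, 0.083 with quantile normalization, 0.28 with median centring, 0.65 as the mean of its probe sets and 0.12 with the 3' excess as a covariate, with which r for DBP was 0.64. With 1 array left out r ran from -0.62 to 0.069 for PER1, -0.64 to 0.43 for CRY2, -0.45 to 0.23 for DBP and 0.54 to 0.86 for BHLHE40. The cause was not tested. Deviations of same-numbered arrays correlated at -0.19 to 0.13, so the numbers were not taken as pairs; with the replicate block 0 clock genes and 0 probe sets passed. Signals near the no-target level limit BHLHE40, the other PER1 probe set, ARNTL on KNP replicate 1 and some related genes, PRKCA among them.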

Other observations

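The spread of the arrays in each breed was also compared for the related genes. Of 23 related genes 16 had the larger SD in KNP, with a median ratio of 1.44. Over all named genes 56.5% did, with a median ratio of 1.11, and the difference from that share was not tested. The D-box repressor NFIL3 had an SD of 0.71 in KNP and 0.12 in YS (log2, n = 4 each). NFIL3 signal was 989, 707, 1407 and 2257 on KNP replicates 1 to 4, against 1337, 1225, 1363 and 1498 on YS replicates 1 to 4. KNP replicates 1 and 2 held the 2 lowest values, as for ARNTL and BHLHE40, for the related genes FKBP5 and CUL1, and for 5.46% of the named genes. NFIL3 had the largest SD ratio of the 23 and is described here after its values were seen. The ratio was lowest for KLF15, at 0.433, and 7 of the 23 had the smaller SD in KNP. The share of all named genes with the larger SD in KNP depended on single arrays and on median centring.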
